A study of Mus musculus with 15 samples.

Results

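The subject here was skeletal muscle RNA in bulk tumours: which of 15 MC38 tumour libraries carried it, and which genes went with it. The libraries were selected on a measured value, their level of Acta1, the skeletal muscle alpha-actin of the thin filament, in CPM (reads of a gene scaled to the size of its library). The set above the threshold of 50 CPM held 4 of the 15 libraries, and the other 11 formed the set they were compared with. Acta1 itself has no test, and the calls for other genes list what went with Acta1 in these libraries, which is a description and no independent evidence of muscle.

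MC38 is a mouse colon carcinoma line, here grown under the skin of the flank of C57BL/6 mice. Every tumour received an injection into the tumour at a diameter of about 5 mm and was collected after 24 h, and each library is labelled as a separate biological replicate. The agents were BO-112, a double-stranded RNA complexed with a carrier that activates RNA sensors, and DMXAA, an agonist of mouse STING that also disrupts tumour vessels. The groups were BO-112 (50 µg, n = 4), DMXAA (100 µg, n = 4), BO-112 with DMXAA (50 µg and 100 µg, n = 4) and Vehicle (n = 3). The Vehicle was 100 µL of PBS with 5% DMSO and 5% glucose. The libraries above the threshold were DMXAA replicates 1 and 3, BO-112 replicate 1 and Vehicle replicate 2, written below as DMXAA 1, DMXAA 3, BO-112 1 and Vehicle 2. None of the 4 libraries of BO-112 with DMXAA was above it, so that group informed only the spread. The model carried the treatment group as a term, and each difference was estimated within the DMXAA, BO-112 and Vehicle groups.

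Skeletal muscle fibres are packed with sarcomeres, in which thick filaments of myosin slide along thin filaments of actin, troponin and tropomyosin between Z-discs. Calcium released from the sarcoplasmic reticulum through the ryanodine receptor starts contraction, and a calcium pump returns it. A sheet of muscle lies under the skin of the mouse trunk, and body wall muscle lies beneath that, so a tumour implanted under the skin can grow against or into muscle. The labels do not record whether muscle was taken with a tumour. In bulk RNA, fewer cells of a type and less RNA per cell cannot be told apart.

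The total per library was between 12725316 and 19660511 reads. At this depth the counting error was small for the abundant muscle genes and large for genes below 1 CPM, and the intervals on shares and ratios given below cover counting error only. Levels carry an added 0.5 reads per gene from the deposited values, so a gene without a read shows a small level above 0. Each library was set against the mean of all the others. Genes with the shortest transcripts then exceeded those with the longest in DMXAA 2 (gap of median log2 levels 0.79) and in DMXAA 3 (0.45), against -0.21 to 0.05 in the other 13 libraries.

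The promoters of 3 genes are printed, searched for motifs through which muscle genes are known to be read. They belong to Acta1, which formed the sets, to Ckm, the muscle creatine kinase, and to Myh4, whose log2 difference was the highest of all genes tested. Each is the 250 bases before the transcription start, 5′ to 3′ on the gene's strand, from RefSeq on GRCm38.p6. Acta1 is chr8:123894776-123895025 on the minus strand, Ckm is chr7:19410844-19411093 on the plus strand and Myh4 is chr11:67237562-67237811 on the plus strand. Capitals mark the E-box CANNTG, bound by MyoD family factors, the MEF2 site and the CArG box, bound by serum response factor.
Acta1: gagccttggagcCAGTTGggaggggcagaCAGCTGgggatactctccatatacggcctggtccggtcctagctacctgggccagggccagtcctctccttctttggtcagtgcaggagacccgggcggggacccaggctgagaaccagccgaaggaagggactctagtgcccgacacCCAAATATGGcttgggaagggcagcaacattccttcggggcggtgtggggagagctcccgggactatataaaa
Ckm: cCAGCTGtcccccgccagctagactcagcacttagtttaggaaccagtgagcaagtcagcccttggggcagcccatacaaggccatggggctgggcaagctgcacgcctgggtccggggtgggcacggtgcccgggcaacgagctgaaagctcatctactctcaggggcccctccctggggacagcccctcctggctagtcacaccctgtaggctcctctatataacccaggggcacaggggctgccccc
Myh4: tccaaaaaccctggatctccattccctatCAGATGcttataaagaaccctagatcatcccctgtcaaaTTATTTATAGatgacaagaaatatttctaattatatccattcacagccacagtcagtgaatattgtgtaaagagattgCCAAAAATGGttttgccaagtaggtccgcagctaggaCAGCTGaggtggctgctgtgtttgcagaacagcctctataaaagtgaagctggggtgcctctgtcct

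The Acta1 window held 2 E-boxes and 1 CArG box, the Ckm window held 1 E-box, and the Myh4 window held 2 E-boxes, 1 MEF2 site and 1 CArG box. Both strands were searched, and the capitals in these windows do not overlap. Of Acta1 and the 86 genes called below, 66 had an entry, with 77 windows. An E-box was in 77.9% of these windows, against 66.2% of all 32851 windows of the same length. A MEF2 site was in 15.6% of them, against 2.92% of all windows, and a CArG box in 5.19%, against 1.47% of all windows. These were 12 and 4 of the 77 windows, and the 4 include the printed Acta1 and Myh4 windows. A gene with several windows counts more than once. A match describes letters in the window and is not a measured binding site.

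Acta1 had 291 CPM in DMXAA 1, 194 CPM in DMXAA 3, 163 CPM in BO-112 1 and 58.0 CPM in Vehicle 2. In the other 11 libraries it had 0.113 CPM at the lowest, 0.475 CPM at the median and 5.60 CPM at the highest. The library just inside the threshold was therefore Vehicle 2 at 58.0 CPM, and the one just outside was Vehicle 3 at 5.60 CPM, and no library lay between them. Of the 4 libraries above the threshold, 2 came from 4 DMXAA tumours, 1 from 4 BO-112 tumours and 1 from 3 Vehicle tumours.

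**Figure D1:**
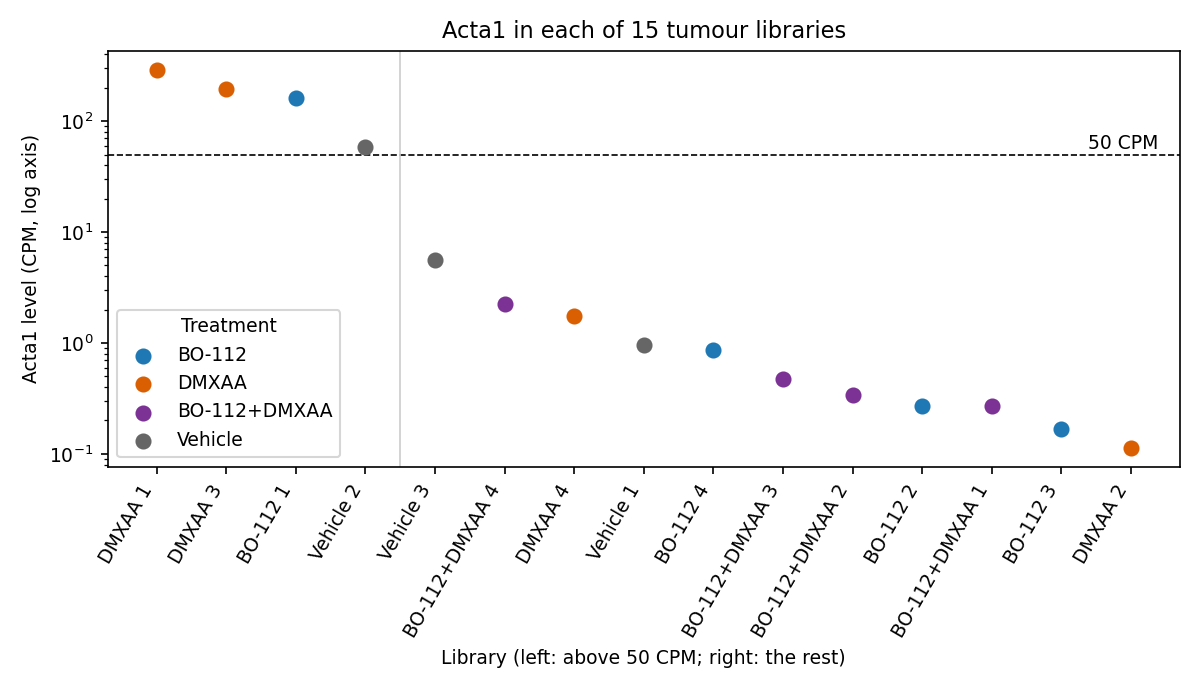
Acta1 level in each of the 15 libraries, in CPM on a log axis, ordered from high to low and coloured by treatment. The dashed line is the threshold of 50 CPM: DMXAA 1, DMXAA 3, BO-112 1 and Vehicle 2 lie above it, and the next library, Vehicle 3, lies at 5.60 CPM.

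With treatment group in the model, 86 of 17711 genes tested were called between the sets at an adjusted p under 0.05 (limma, Benjamini-Hochberg). This is 0.486% of the genes tested, and all 86 were higher in the 4 libraries above the threshold. No gene was called lower by limma, and none by limma-voom on the recovered reads, although 163 genes were lower and 332 higher at an unadjusted p under 0.05. All 86 genes are annotated as protein coding, and in each of them every library above the threshold exceeded each of the other 11. Such a separation was seen for 112 genes in all, or 0.632% of those tested, of which 26 were not called. Compared only inside each treatment group that held both sets, 244 genes were higher without overlap (1.38%) and 109 were lower (0.615%). The log2 differences of the called genes ran from 1.602 to 8.02 with a median of 4.44, beside a median of 0.0086 over all genes tested. 

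BO-112 1 was the only BO-112 library above the threshold, so without it only the DMXAA and Vehicle groups informed the difference. The count was then 57, of which 55 were among the 86. With all libraries kept and genes under 1 CPM in more than 11 libraries left out, it was 51. Without DMXAA 2 and DMXAA 3, the libraries in which long transcripts were low, it was 73, of which 71 were among the 86. The calls of 5 genes described below were lost without BO-112 1. Their log2 differences were then 5.47 for Myl1 (adjusted p = 0.0677), 3.04 for Neb (0.112), 3.66 for Casq1 (0.157), 3.66 for Myf6 (0.0889) and 2.72 for Smyd1 (0.294, limma). All 5 differences stayed positive while the calls did not hold.

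**Figure D2:**
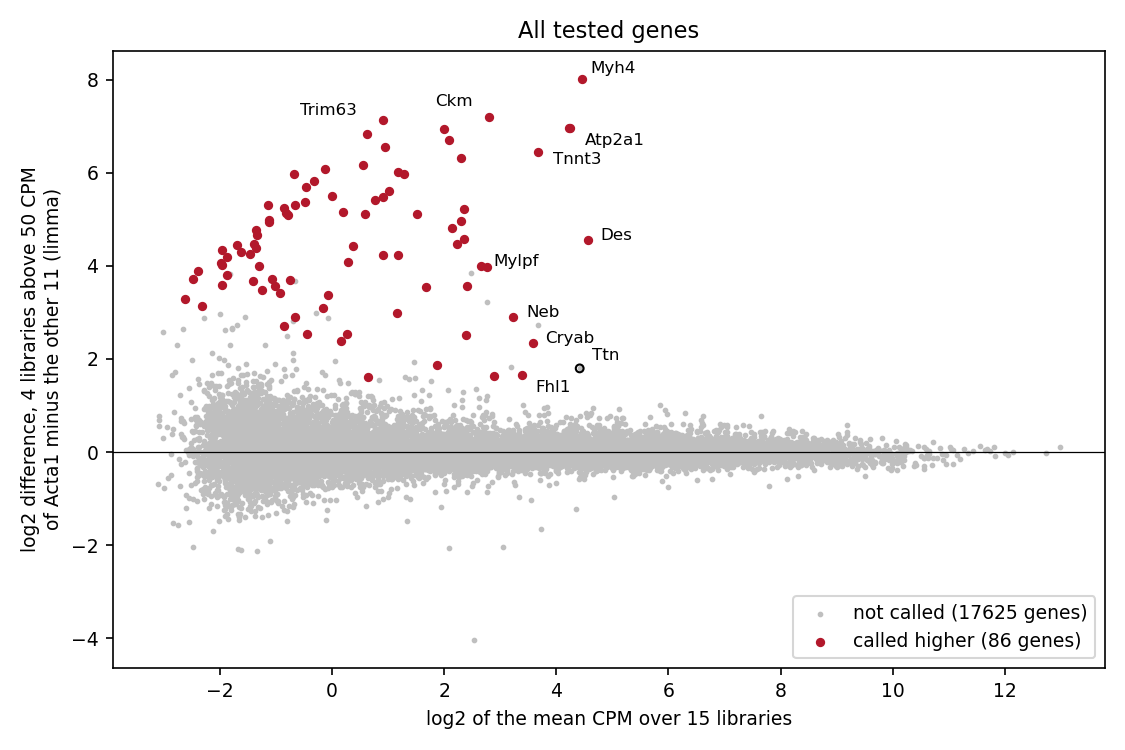
Log2 difference of each gene between the 4 libraries above 50 CPM of Acta1 and the other 11 (limma, treatment in the model), against the log2 of its mean CPM over 15 libraries. The 86 called genes (red) all lie above 0, from 1.602 to 8.02, and Ttn (open circle) at 1.80 was not called.

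The muscle gene lists held 121 genes that were tested, and 54 of them were called, all higher. The remaining 32 called genes were in no list. The share of all reads that Acta1 and the 86 genes took was small in every library. It was 0.192% in DMXAA 1 (95% Wilson interval 0.190 to 0.194), 0.0872% in DMXAA 3 (0.0857 to 0.0887), 0.101% in BO-112 1 (0.0999 to 0.103) and 0.0445% in Vehicle 2 (0.0434 to 0.0455). In the other 11 libraries it was between 0.00272% and 0.00631%. That the sets do not overlap in this share was fixed in advance. Acta1 formed the sets, and the 86 genes were called between them, each without overlap.

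Myosin of the fast fibre types made up the group with the highest median, with 9 of 10 genes of the fast myosin list called higher (median log2 difference 5.32). Myh4, the heavy chain of the fastest type IIb fibres, had 156 CPM in DMXAA 1, 58.7 CPM in DMXAA 3, 99.8 CPM in BO-112 1 and 11.4 CPM in Vehicle 2. The other 11 libraries had 0.0307 to 2.58 CPM with a median of 0.107 CPM. Myh4 rose by 8.02 on the log2 scale (SE 1.07, adjusted p = 0.00125, limma), and its sets did not overlap. Myh1, the type IIx heavy chain, had 154 CPM in DMXAA 1, 21.8 CPM in DMXAA 3, 65.8 CPM in BO-112 1 and 36.6 CPM in Vehicle 2, against 0.0307 to 2.52 CPM in the other 11. Its log2 difference was 6.96 (SE 0.94, adjusted p = 0.00139). Myh2, the type IIa heavy chain, was far less abundant, at 3.60 to 6.96 CPM in the 4 libraries, against 0.0256 to 0.563 CPM in the other 11 (log2 difference 6.17, SE 0.85).

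The light chains moved in the same direction. Myl1, an essential light chain, had 7.05 to 26.0 CPM in the 4 libraries, against 0.0319 to 0.741 CPM in the other 11 (log2 difference 6.32). Mylpf, the fast regulatory light chain, had 29.7 CPM in DMXAA 1, 24.3 CPM in DMXAA 3, 19.8 CPM in BO-112 1 and 8.69 CPM in Vehicle 2. Its level in the other 11 libraries was 0.366 to 2.30 CPM with a median of 1.04 CPM, and the log2 difference was 4.01 (SE 0.34, adjusted p = 4.68e-05). Mybpc2, the fast form of the thick filament protein myosin-binding protein C, was higher by 5.23. Myom1 and Myom2, which crosslink thick filaments at the M-band, were higher by 1.86 and 5.41. Mybph, a relative of myosin-binding protein C, was not called by limma (log2 difference 3.84, adjusted p = 0.0702) although limma-voom called it, with levels of 0.192 to 1.501 CPM in the 4 libraries against 0.0256 to 0.310 CPM in the others.

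The 3 fast heavy chains stand in a cluster on chromosome 11 and have similar sequences, so the counting could have split reads among them. With that limit, their shares of the summed Myh1, Myh2 and Myh4 reads differed between the 4 libraries by more than the counting error. The Myh4 share was 67.1% in DMXAA 3 (Wilson interval 64.5 to 69.7, 1260 reads), 58.6% in BO-112 1 (56.8 to 60.3, 3107 reads), 49.6% in DMXAA 1 (48.4 to 50.8, 6592 reads) and 22.0% in Vehicle 2 (19.3 to 24.9, 850 reads). The Myh1 share was 71.1% in Vehicle 2 and 24.9% in DMXAA 3, with 48.9% in DMXAA 1 and 38.6% in BO-112 1. Myh2 took 1.55% in DMXAA 1, 2.80% in BO-112 1, 6.94% in Vehicle 2 and 7.94% in DMXAA 3. In words, DMXAA 3 was led by type IIb myosin, Vehicle 2 by type IIx myosin, and DMXAA 1 held near equal parts of each. Vehicle 3, the next library below the threshold, had 94 reads of the 3 genes, with 45.7% in Myh4 and 44.7% in Myh1. Each share comes from 1 tumour, and its link with treatment cannot be tested.

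**Figure D3:**
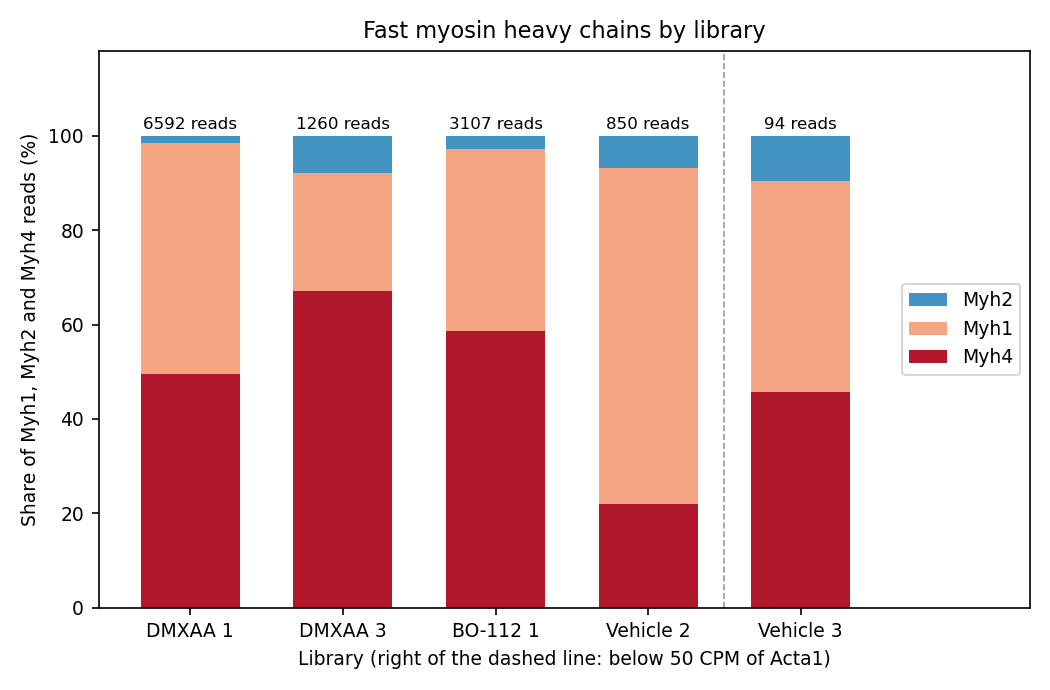
Share of the summed Myh4, Myh1 and Myh2 reads taken by each gene, in percent, in the 4 libraries above 50 CPM of Acta1 and in Vehicle 3, with the read total above each bar. Myh4 takes 67.1% in DMXAA 3 and 22.0% in Vehicle 2, where Myh1 takes 71.1%.

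Genes of slow fibres behaved unevenly. Of 7 slow fibre genes tested, 2 were called, Mybpc1 and Myoz2, and the list median was 0.35. Mybpc1, the slow form of myosin-binding protein C, which fast fibres also make, had 26.0 CPM in DMXAA 1, 13.1 CPM in DMXAA 3, 17.2 CPM in BO-112 1 and 5.90 CPM in Vehicle 2. It had 0.0356 to 0.504 CPM in the other 11 libraries (log2 difference 6.71, SE 0.64, adjusted p = 0.000102). The slow troponins were not called. Tnnt1 had 0.454 to 3.08 CPM in the 4 libraries, against 0.223 to 1.77 CPM in the others (adjusted p = 0.985), and Tnni1 had 0.310 to 2.11 CPM against 0.331 to 0.888 CPM (adjusted p = 0.985). The highest level of each was in DMXAA 3. The slow heavy chain Myh7 and the slow light chains Myl2 and Myl3 were not analysed here.

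The thin filament list had 6 of 8 tested genes called higher, with a median log2 difference of 4.22. Tnnt3, fast troponin T, had 71.6 CPM in DMXAA 1, 49.9 CPM in DMXAA 3, 49.5 CPM in BO-112 1 and 15.6 CPM in Vehicle 2. The other 11 libraries had 0.113 to 1.57 CPM with a median of 0.448 CPM, and the log2 difference was 6.45 (SE 0.59, adjusted p = 6.55e-05). Tnnt3 stood at a nearly fixed ratio to Acta1, between 24.6% and 30.4% of the Acta1 level in all 4 libraries. Tnni2, fast troponin I, was higher by 3.97 (SE 0.45), with 8.44 to 35.9 CPM in the 4 libraries against 0.399 to 4.11 CPM in the others. Actn3, the alpha-actinin of fast fibres, was higher by 4.81 (SE 0.40), with its highest level, 23.5 CPM, in DMXAA 3 and not in DMXAA 1. Neb, nebulin, which helps to set thin filament length, had 9.11 to 52.9 CPM against 0.792 to 6.23 CPM in the other 11, and its log2 difference was 2.90 (adjusted p = 0.0177).

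Lmod2, a leiomodin that helps thin filaments elongate, had 163 reads over the 4 libraries and no read in the other 11. With a floor of 3 reads over the 11 libraries it was at least 130-fold higher. The tropomyosins Tpm1 and Tpm2, which many cell types express, were not called. Tpm1 had 526 to 755 CPM in the 4 libraries and 381 to 613 CPM in the others (log2 difference 0.16, adjusted p = 0.985).

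At the Z-disc, 11 of 16 genes tested were called higher (median log2 difference 3.69). Des, desmin, the intermediate filament that links Z-discs, had the smallest adjusted p of all genes. It had 115 CPM in DMXAA 1, 89.3 CPM in DMXAA 3, 69.8 CPM in BO-112 1 and 47.2 CPM in Vehicle 2. The other 11 libraries had 1.28 to 5.44 CPM with a median of 3.20 CPM, and the log2 difference was 4.56 (SE 0.29, adjusted p = 4.47e-06). Relative to Acta1, Des stood at 81.4% in Vehicle 2 and at 39.6% to 45.9% in DMXAA 1, BO-112 1 and DMXAA 3. Tcap, telethonin, which caps titin, was higher by 4.24 (SE 0.38). Xirp2, a Xin repeat protein that binds actin, had 21.7 CPM in DMXAA 1, 18.0 CPM in Vehicle 2, 9.39 CPM in DMXAA 3 and 8.47 CPM in BO-112 1, against 0.0366 to 1.27 CPM in the others (log2 difference 6.95, SE 0.87). Vehicle 2 was the lowest of the 4 libraries for most genes but was second for Xirp2, which there stood at 31.1% of the Acta1 level, against 4.83% to 7.44% in the other 3.

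Cryab, a small heat shock protein of the Z-disc that other cells also make, was higher by 2.34 (SE 0.36), with 11.96 to 49.7 CPM in the 4 libraries and 2.05 to 11.95 CPM in the rest. Ttn, the giant spring protein titin, was not called (log2 difference 1.80, SE 0.44, adjusted p = 0.194). It had 81.8 CPM in DMXAA 1, 47.2 CPM in BO-112 1, 25.3 CPM in Vehicle 2 and 16.2 CPM in DMXAA 3, against 3.58 to 20.8 CPM in the other 11, so DMXAA 3 lay inside the range of the rest. Ttn was called with a threshold of 100 CPM, which puts Vehicle 2 in the other set, and with Acta1 as a continuous term. Flnc, filamin C, also differed little, with 114 to 207 CPM against 87.6 to 165 CPM (log2 difference 0.29, adjusted p = 0.985).

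Genes of calcium release and uptake were called in 10 of 17 cases, all higher (median log2 difference 3.48). Atp2a1, the fast-fibre calcium pump SERCA1, had 127 CPM in DMXAA 1, 44.4 CPM in DMXAA 3, 84.4 CPM in BO-112 1 and 17.8 CPM in Vehicle 2. The other 11 libraries had 0.0998 to 2.11 CPM with a median of 0.502 CPM (log2 difference 6.95, SE 0.80, adjusted p = 0.000394). Ryr1, the calcium release channel, had 29.5 CPM in DMXAA 1, 11.5 CPM in DMXAA 3, 19.8 CPM in BO-112 1 and 7.54 CPM in Vehicle 2, against 0.0998 to 1.22 CPM in the rest (log2 difference 4.96, SE 0.63). Cacna1s, the voltage sensor that opens it, was higher by 6.08 and had 4 reads in all over the 11 libraries, against 243 reads over the 4.

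Pvalb, the calcium buffer parvalbumin of fast fibres, had 11.6 CPM in DMXAA 1, 9.32 CPM in DMXAA 3 and 10.01 CPM in BO-112 1, but 1.604 CPM in Vehicle 2. Its level in the other 11 libraries was 0.0307 to 0.385 CPM (log2 difference 6.02, SE 0.78). Casq1, calsequestrin, which holds calcium in the reticulum, was higher by 4.43. Sln, sarcolipin, an inhibitor of the pump, was not called (log2 difference 2.57, adjusted p = 0.0750) although limma-voom called it, with 0.0823 to 0.691 CPM in the 4 libraries against 0.0297 to 0.0767 CPM in the others. Atp2a2, the pump of slow fibres and of most other cells, had 357 to 435 CPM in the 4 libraries and 196 to 497 CPM in the others (adjusted p = 0.985).

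Among genes of energy metabolism, 5 of 19 tested were called higher (median log2 difference 1.59). Ckm had 37.5 CPM in DMXAA 1, 29.8 CPM in DMXAA 3, 29.3 CPM in BO-112 1 and 6.51 CPM in Vehicle 2, against 0.0307 to 0.741 CPM in the other 11. Its log2 difference was 7.21 (SE 0.83, adjusted p = 0.000409). Mb, myoglobin, which stores oxygen, had 12.2 CPM in DMXAA 1, 4.88 CPM in DMXAA 3, 3.70 CPM in BO-112 1 and 1.73 CPM in Vehicle 2. Over the 4 libraries it had 421 reads, and over the other 11 it had 3, a ratio of levels of 337 (exact counting interval 115 to 1641). Pygm, muscle glycogen phosphorylase, was higher by 3.56 (SE 0.40), with 5.05 to 33.6 CPM against 0.698 to 1.81 CPM. Ckmt2, the creatine kinase of muscle mitochondria, was higher by 4.77. The remaining called member was Myoz1, a Z-disc protein that binds calcineurin and also stands in the Z-disc list.

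Several muscle enzymes had a clear level in the other 11 libraries as well and were not called by limma. Pfkm, muscle phosphofructokinase, had 60.2 to 81.4 CPM in the 4 libraries and 51.4 to 80.8 CPM in the others (adjusted p = 0.985). Eno3, beta-enolase, had 17.8 to 39.3 CPM against 10.7 to 23.7 CPM (log2 difference 0.76, adjusted p = 0.123). Eno3 was called higher at a threshold of 100 CPM, with array weights, and without Vehicle 2, DMXAA 2, or DMXAA 2 and DMXAA 3. Pgam2, muscle phosphoglycerate mutase, had 3.36 to 8.55 CPM against 1.119 to 3.34 CPM, with no overlap, and missed the threshold by limma (log2 difference 1.59, adjusted p = 0.0728) but not by limma-voom. Cox6a2, the muscle form of a cytochrome oxidase subunit, had 22.7 to 42.7 CPM against 16.3 to 39.5 CPM.

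**Figure D4:**
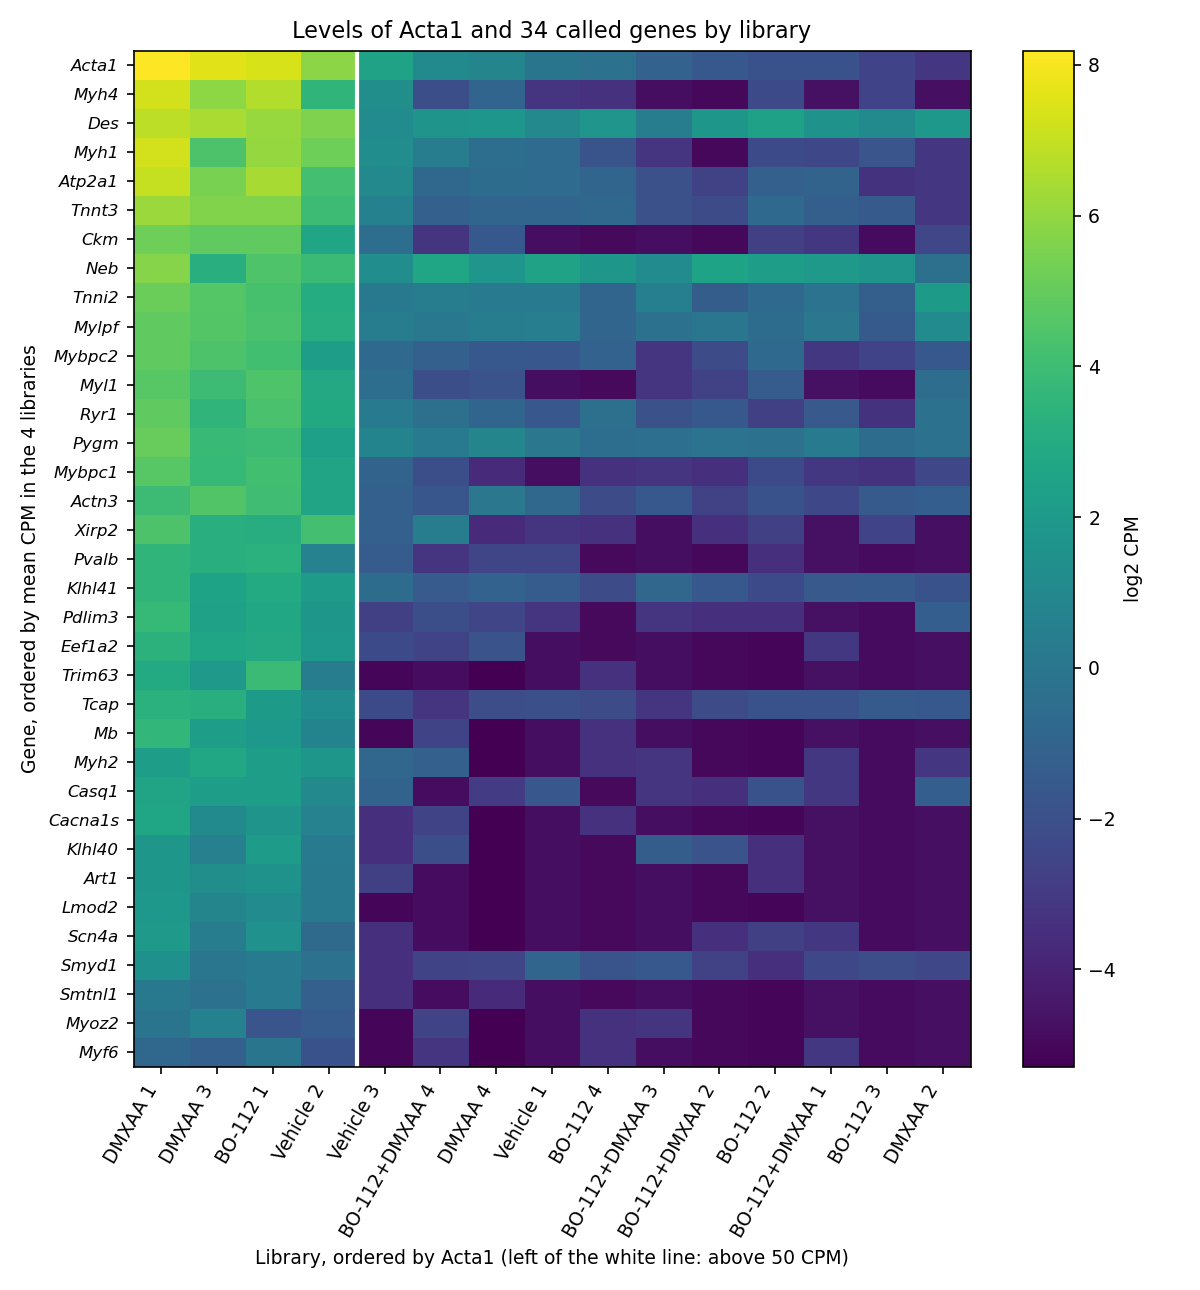
Level (log2 CPM, colour) of Acta1 and 34 called genes named by rule, 1 row per gene ordered by mean level in the 4 libraries, and 1 column per library ordered by Acta1. Left of the white line are the 4 libraries above 50 CPM, and in every row these 4 are higher than each library to the right of it. Vehicle 3 is the next column.

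Of the membrane and dystrophin complex list, 3 of 14 genes were called higher (median log2 difference 0.50). Among them were Art1, an ADP-ribosyltransferase of the fibre surface, and Scn4a, the sodium channel of muscle action potentials. Scn4a had 3.83 CPM in DMXAA 1, 1.35 CPM in DMXAA 3, 2.93 CPM in BO-112 1 and 0.636 CPM in Vehicle 2, against 0.0256 to 0.150 CPM in the others (log2 difference 5.32, SE 0.68). Dmd, dystrophin, had 7.79 to 13.02 CPM in the 4 libraries and 3.51 to 14.6 CPM in the other 11, and Dag1, dystroglycan, had 108 to 160 CPM against 69.8 to 184 CPM. Neither was called (adjusted p = 0.985 for Dmd and 0.988 for Dag1), and both genes were expressed in libraries with almost no Acta1.

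Of 8 transcription factors and regulators of muscle identity, 2 were called, and the list median was 0.02. Myf6, the MyoD family member most abundant in mature fibres, had 39 reads over the 4 libraries and 3 over the other 11, a ratio of levels of 31.2 (exact counting interval 9.92 to 158). Smyd1, a methyltransferase of muscle and heart, had 0.878 to 2.79 CPM against 0.0890 to 0.534 CPM (log2 difference 2.71, adjusted p = 0.0371). The Smyd1 call was lost in 13 of the 15 fits that left out 1 library, with log2 differences of 2.40 to 2.98 and adjusted p between 0.0503 and 0.294 in them, and kept without Vehicle 1 and without BO-112 4. Mef2a had 84.1 to 119 CPM against 87.8 to 120 CPM, and Mef2a, Mef2c and Mef2d were not called. Myod1 and Myog were not analysed here.

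No gene of satellite cells, the stem cells of muscle, was called among 7 tested, by limma or by limma-voom, and 1 had an unadjusted p under 0.05. That gene was Cdh15, M-cadherin, with 0.0823 to 0.453 CPM in the 4 libraries against 0.0256 to 0.116 CPM in the others (log2 difference 2.31, adjusted p = 0.606). It was called higher when BO-112 1, where it was at 0.0823 CPM, was left out. Of 5 neuromuscular junction genes none was called by limma or limma-voom, and 1 had an unadjusted p under 0.05. Chrna1, the acetylcholine receptor alpha subunit, had 1.34 to 3.66 CPM against 0.751 to 2.45 CPM (log2 difference 0.80, adjusted p = 0.985). Pax7, Musk and several other defining genes of these cell types were not analysed here, so neither list is complete. The share called over all genes tested was 0.486%, so 0 calls in lists this short lies near that share.

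The list of ubiquitin ligases and growth control had 7 of 11 genes called higher (median log2 difference 3.57). Trim63, the ligase MuRF1, which tags sarcomere proteins for breakdown and is induced in wasting muscle, had 14.9 CPM in BO-112 1, 7.69 CPM in DMXAA 1, 3.85 CPM in DMXAA 3 and 1.30 CPM in Vehicle 2. It had 508 reads over the 4 libraries and 1 over the other 11, a ratio of pooled levels of 1220 with an exact counting interval of 218 to 48274. The log2 difference fitted with treatment in the model was 7.14 (SE 0.56, adjusted p = 2.15e-05, limma). Unlike most called genes Trim63 was highest in BO-112 1, where it stood at 9.13% of the Acta1 level, against 1.98% to 2.64% in the other 3 libraries. Fbxo32, the ligase atrogin-1 and its usual companion in wasting, was not called, with 10.9 to 21.8 CPM in the 4 libraries and 10.45 to 24.6 CPM in the other 11 (adjusted p = 0.985).

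Klhl40 and Klhl41, kelch proteins that stabilise thin filament proteins, were higher by 5.83 and 4.24. Klhl41 had 11.7 CPM in DMXAA 1, 5.79 CPM in DMXAA 3, 7.81 CPM in BO-112 1 and 4.33 CPM in Vehicle 2, against 0.210 to 0.682 CPM in the rest (SE 0.37, adjusted p = 4.83e-05). Trim72, which takes part in membrane repair, was higher by 3.08.

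The 32 called genes in no list were named after their values were seen, apart from Eef1a2 and Smtnl1, which the naming rule gave. Several are known sarcomere or muscle genes. Eef1a2, the elongation factor form of muscle and neurons, had 10.504 CPM in DMXAA 1, 6.55 CPM in DMXAA 3, 7.16 CPM in BO-112 1 and 3.78 CPM in Vehicle 2, against 0.0301 to 0.281 CPM in the others (log2 difference 6.55, SE 0.72). Rpl3l, the ribosomal protein form of striated muscle, was higher by 3.41. Ano5, an anoctamin linked to muscular dystrophy in humans, had no read in the other 11 libraries and was at least 91.2-fold higher. Myh14, a nonmuscle myosin heavy chain, was the called gene whose ratio to Acta1 varied most, at 3.92% of Acta1 in Vehicle 2 and 0.252% in BO-112 1.

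Other genes of the 32 had a sizeable level in the rest as well. Fhl1, a LIM domain protein, had 13.05 to 50.9 CPM in the 4 libraries and 3.82 to 8.10 CPM in the other 11 (log2 difference 1.65, adjusted p = 0.0309). Hspb6, a small heat shock protein, had 9.17 to 23.7 CPM against 2.23 to 6.30 CPM (log2 difference 1.64). Ndrg2 had 4.39 to 23.1 CPM against 0.676 to 3.70 CPM (log2 difference 2.51, SE 0.30). Of the 86 called genes, 10 had a mean of at least 1 CPM in the other 11 libraries, and 34 had a mean under 0.1 CPM.

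**Figure D5:**
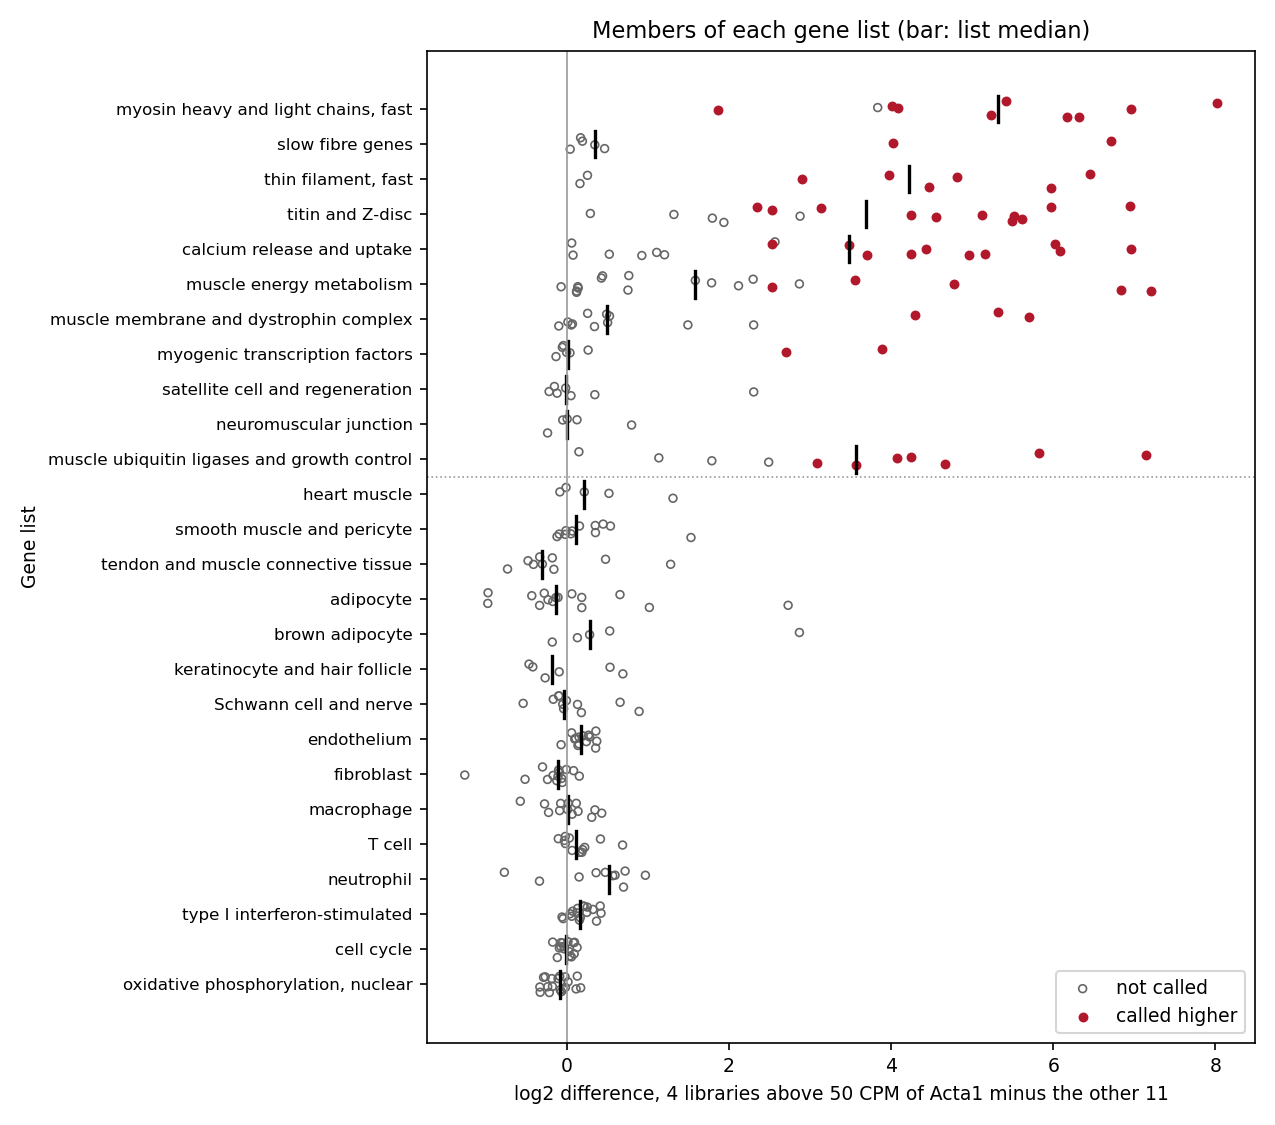
Log2 difference between the 4 libraries above 50 CPM of Acta1 and the other 11 for each member of the 26 gene lists, with a bar at the list median and called genes filled. Called genes occur in 9 of the 11 muscle lists above the dotted line, where the highest median is 5.32 for fast myosin, and none in the 15 lists below it.

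The levels of the called genes did not stand in fixed proportion to Acta1. Of the 86 genes, 70 were highest in DMXAA 1, 10 in BO-112 1, 5 in DMXAA 3 and 1 in Vehicle 2, and 67 were lowest in Vehicle 2. Divided by Acta1, 46 were highest in Vehicle 2 and 49 were lowest in DMXAA 3. No level of the other libraries was subtracted first, so a gene also present in them counts more where Acta1 is low, as in Vehicle 2. Hspb6, for instance, had 9.17 CPM in Vehicle 2, against 6.30 CPM in Vehicle 1 and 5.90 CPM in Vehicle 3. The part of this in the counts was not tested. The highest of the 4 ratios to Acta1 exceeded the lowest by 2.54-fold at the median gene, with a range of 1.21-fold for Myoz1 to 15.5-fold for Myh14. Neb, with a long transcript, was low in DMXAA 3 relative to Acta1. It stood at 4.69% of Acta1 there and at 13.8% to 25.4% in the other 3 libraries. DMXAA 3 is a library in which long transcripts were low in general, and the part of this in the ratios was not tested. With the length trend removed the count of called genes was 87, including all 86.

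The genes most like Acta1 across libraries, by Pearson's correlation of log2 CPM after removal of the treatment means over 15 libraries, were Atp2a1 (0.978), Tnnt3 (0.976), Myh4 (0.976), Pvalb (0.969) and Pygm (0.962). Next came Eef1a2 (0.962), Smtnl1 (0.959), Myh1 (0.959), Mybpc2 (0.958) and Cacna1s (0.955). All 10 were among the called genes, and these points share the same libraries and the same 4 high values, so the correlations are a description.

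Lists for other tissues and cell types gave no call by limma, though this depended on the setting for Synm and Cox8b. Among 178 genes tested in the 15 other lists, limma called 0, with 7 at an unadjusted p under 0.05. Of all 17711 genes tested, 86 (0.486%) were called and 495 had an unadjusted p under 0.05. At that share few or no calls were to be looked for in 178 genes, or in any single list below. Limma-voom called 1 of the 178, Cox8b, a cytochrome oxidase subunit of brown fat and muscle that also stands in the energy list. Cox8b was also called with array weights and without DMXAA 2. Synm, the intermediate filament protein synemin, which smooth and skeletal muscle both make, had 12.2 CPM in DMXAA 1, 4.68 CPM in DMXAA 3, 7.87 CPM in BO-112 1 and 2.57 CPM in Vehicle 2, against 1.32 to 2.93 CPM in the other 11, so Vehicle 2 lay inside the range of the others. Its log2 difference was 1.53 (SE 0.34, adjusted p = 0.0971). It was called higher at 100 CPM, with the continuous Acta1 term, with no treatment term, with the length trend removed, with array weights, and without Vehicle 2 or Vehicle 3.

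Summed adipocyte genes had 426 CPM in DMXAA 1, 170 CPM in DMXAA 3, 107 CPM in Vehicle 2 and 104 CPM in BO-112 1, against 82.4 to 508 CPM in the other 11, where the highest was DMXAA 2. The second highest of all 15 was BO-112 2, also below the threshold, with 475 CPM. Adipoq, the fat hormone adiponectin, had 16.4 CPM in DMXAA 1 and 0.247 CPM in BO-112 1, against 0.0957 to 22.4 CPM in the others (log2 difference -0.23, adjusted p = 0.992). The libraries with most fat RNA were thus not those with most Acta1, apart from DMXAA 1.

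Tendon genes summed to 41.0 to 95.5 CPM in the 4 libraries and 39.0 to 94.2 CPM in the other 11 (median log2 difference -0.30, 0 of 9 called, 1 at an unadjusted p under 0.05). Heart muscle genes summed to 9.08 to 20.9 CPM against 8.62 to 17.1 CPM. Actc1, the cardiac actin, whose sequence is close to that of Acta1, had 0.119 to 0.740 CPM against 0.0301 to 0.734 CPM (adjusted p = 0.985). Smooth muscle and pericyte genes summed to 306 to 401 CPM against 261 to 456 CPM. Keratinocyte genes summed to 13.1 to 25.0 CPM against 13.5 to 25.2 CPM, and Schwann cell genes to 135 to 186 CPM against 146 to 180 CPM. In these lists the ranges of the sets overlapped throughout.

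Tumour and immune genes showed no difference that passed the test either. The medians over lists were 0.18 for endothelium, -0.10 for fibroblasts, 0.02 for macrophages, 0.11 for T cells, 0.52 for neutrophils, 0.17 for type I interferon-stimulated genes and -0.01 for the cell cycle, on the log2 scale. The nuclear genes of oxidative phosphorylation, abundant in muscle and in tumour cells, had a median of -0.08. Summed, they had 3428 to 5155 CPM in the 4 libraries and 3235 to 6139 CPM in the other 11. A missed threshold does not show that the sets were equal in these genes. In simulated data with this design, 55% of genes shifted by 2-fold were found, 82% at 4-fold and 99% at 16-fold, so shifts of 2-fold and less would often be missed. The simulated data held 100 changed genes at each fold, which eases the adjusted threshold. In the tumours 86 genes were called, none with a log2 difference under 1.602, so the shares found may be too high for these data.

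Reads of genes in the muscle lists also occurred in the other 11 libraries. Vehicle 3, with 5.60 CPM of Acta1, had 11.1 CPM summed over the fast myosin list, and BO-112+DMXAA 4, with 2.24 CPM of Acta1, had 7.65 CPM. The lowest sum was 2.73 CPM, in BO-112 3. Myom1 alone had 1.11 to 3.20 CPM in these 11 libraries. BO-112+DMXAA 2 had a sum of 3.62 CPM without a read of Myh1, Myh2 or Myh4. DMXAA 2, with the lowest Acta1 level (0.113 CPM), had 6.11 CPM. Whether these reads came from muscle was not tested. Of the 86 called genes, 15 had no read in Vehicle 3 and 43 had none in BO-112 3, whereas each of the 4 libraries above the threshold had a read of every one. The sum over the 86 genes ran from 368 to 1509 CPM in the 4 libraries and from 31.1 to 59.5 CPM in the other 11. This separation was fixed by the choice of the genes.

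The set was then used as a term in the comparisons of treatment with Vehicle, which share the 3 Vehicle libraries. For BO-112 against Vehicle, 1989 genes were called with the term (11.2% of genes) and 2116 without it (11.9%), 1936 of them in both. For DMXAA against Vehicle the counts were 146 with the term (0.824%) and 221 without it (1.25%), 143 in both. For BO-112 with DMXAA against Vehicle they were 427 with the term (2.41%) and 473 without it (2.67%), 403 in both. The DMXAA count with the term was 20 without Vehicle 1 and 2498 without DMXAA 4, so single libraries moved it many-fold. The BO-112 count with the term was 1097 without Vehicle 3 and 3323 without DMXAA 2, and that of BO-112 with DMXAA was 159 without Vehicle 3 and 685 without DMXAA 2.

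Among the 86 called genes, none was called for any treatment without the term, by limma or limma-voom, and 0, 2 and 0 had an unadjusted p under 0.05 for BO-112, DMXAA and BO-112 with DMXAA. Their median log2 difference from Vehicle without the term was -0.44 for BO-112, 1.02 for DMXAA and -1.36 for BO-112 with DMXAA. With the term these medians were -0.09, 0.31 and 0.14, and the median SE, which was 1.52 without the term, was 0.73 to 0.75. The 86 genes were chosen by this same term on the same libraries. Neither change is therefore independent evidence of what the term does to treatment comparisons. Over all genes the median SE was 0.240 without the term and 0.243 to 0.251 with it. With the term, Ndrg2 was called for BO-112 (log2 difference 1.68, SE 0.36, adjusted p = 0.00729) and for DMXAA (1.78, SE 0.36, adjusted p = 0.0372), and it was the only gene of the 86 that limma called for a treatment. Limma-voom with the term called 3 of the 86 for BO-112 and 0 for DMXAA or for BO-112 with DMXAA.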

How the data were processed

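RNA of 15 tumours was sequenced as stranded mRNA libraries with paired reads of 150 bp. STAR, edgeR, limma and the mm39 build are named in the submitters' processing notes; the role of each, and the annotation, are not given in the sources used here. The deposited table holds log2 CPM of 17711 genes and Acta1, and it was analysed as the authors scaled it. Reads were recovered from it as whole numbers for 100% of the values (relative tolerance 1e-06), with 0.5 reads as offset and scaling factors of 0.85 to 1.08. A raw count table without sample names was not used (15 columns), so limma on log2 CPM was the test. Symbols came from GENCODE M21 (17636 genes; 76 had none, and 6 symbols were shared), and promoters from RefSeq GRCm38.p6.

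Limma 3.58.1 in R 4.3.3 was fitted with group means and a term for Acta1 above 50 CPM, with trended robust moderation and Benjamini-Hochberg adjustment over 17711 genes. Treatment contrasts were fitted with and without the term. Python 3.11.15, scipy 1.17.1 and matplotlib 3.10.9 served for intervals and figures. The fit was tested on simulated counts, with 100 genes changed at each fold; it called 13 unchanged genes. Limma-voom on the recovered reads called 102 genes.

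Named genes were the 12 with the largest log2 difference among called genes that averaged 1 CPM or more in the higher set and did not overlap within groups (none was lower), the 3 smallest adjusted p of each of 26 lists with the first member in the other direction, a fixed panel, and the 10 most correlated with Acta1. Others given for context come from the lists and were picked after their values were seen. Of 349 listed symbols 299 were measured. The libraries, lists and rule were chosen with earlier results of these data known. Some listed genes that entered the counts are not reported here by name. Replicate numbers did not pair the libraries. Replicates are separate tumours by label, with nothing more given on their source.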

Additional observations from a re-analysis of the deposited data

Results flagged for a closer look

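A library was picked out where its gap to the nearest library of its treatment group was larger, as a fraction of the group's range on the log2 scale, than Dixon's critical value for 4 samples at the 95% level. Chance picks out about 1 in 20 groups, and 183 combinations of item and group were checked, of which 24 passed. That rate is no comparison for the 16 that concern BO-112 1, since Acta1 put this library in the high set and the genes were named for separating the sets. All values below are descriptions.

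Among the 4 BO-112 libraries, BO-112 1 stood apart from the other 3 as the highest, as it did for Acta1 with 163 CPM against 0.166 to 0.861 CPM. The gap as a fraction of the range was 0.887 for Myh4, 0.939 for Myh1, 0.877 for Xirp2, 0.848 for Mybpc1, 0.981 for Eef1a2 and 0.889 for Tnnt3. It was 0.841 for Mylpf, 0.977 for Lmod2, 0.886 for Actn3, 0.831 for Tcap and 0.928 for Pygm. It was 0.847 for Klhl41, 0.9 for Tnni2 and 0.972 for Smtnl1. For Eef1a2, Lmod2 and Smtnl1 the other BO-112 libraries had no read, so their fractions depend on the added 0.5 reads. The summed fast myosin list gave 0.923, and the summed calcium list 0.887.

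Among the 4 libraries of BO-112 with DMXAA, all below 50 CPM of Acta1, replicate 4 stood apart as the highest for Myh4 (0.889), Mb (0.867) and Cacna1s (0.867). Myh4 had only 3 reads in replicate 4 (0.241 CPM), and Mb and Cacna1s had 0.172 CPM each there. In the other libraries of this group none of these genes had a read, so these fractions depend on the added 0.5 reads. Replicate 3 was the lowest for Des (0.865), and replicate 1 the lowest in the summed neuromuscular junction list (0.932). Replicate 2 of BO-112 was the lowest in the summed heart muscle list (0.874) and the highest in the summed adipocyte list (0.866) and the summed type I interferon-stimulated list (0.904). Its adipocyte sum was 475 CPM, against 82.4 to 104 CPM in the other 3 BO-112 libraries.

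In 5 lists the library or libraries above 50 CPM lay on opposite sides of the rest in different treatment groups. These differences were not tested, and each group has only 1 or 2 libraries above the threshold. Summed T cell genes had 80.1 CPM in BO-112 1, against 91.1 to 121 CPM in the rest of its group, and 143 CPM in Vehicle 2, against 63.4 and 116 CPM in the other Vehicle libraries, a gap of 1.19 between the log2 differences. Summed type I interferon-stimulated genes had 8733 CPM in BO-112 1, against 8810 to 10602 CPM, and 1595 CPM in Vehicle 2, against 860 and 1309 CPM (gap 0.694). Keratinocyte genes had 13.1 and 15.9 CPM in DMXAA 1 and DMXAA 3, against 15.95 and 25.2 CPM, and 25.0 CPM in Vehicle 2, against 15.6 and 19.8 CPM (gap 0.984). Brown adipocyte genes had 16.1 CPM in BO-112 1, against 12.1 to 14.6 CPM, and 11.3 CPM in Vehicle 2, against 12.6 and 14.41 CPM (gap 0.557). Smooth muscle and pericyte genes had 395 CPM in BO-112 1, against 346 to 384 CPM, and 401 CPM in Vehicle 2, against 415 and 456 CPM (gap 0.233).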

How the results depend on the processing

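The count of 86 genes was within 1.5-fold under median-ratio scaling, total-count scaling, limma-voom, thresholds of 20 and 100 CPM, a continuous Acta1 term, groups with both sets only, no treatment term, a removed length trend, array weights and an offset of 2 reads (70 to 103). The threshold of 20 CPM formed the same sets, since no library lay between 5.60 and 58.0 CPM, so its count could not differ. The threshold of 100 CPM moved Vehicle 2, at 58.0 CPM, into the other set, so the Vehicle group no longer informed the difference. Calls lost or gained at 100 CPM carry that change of sets. The count was 51 with a filter of at least 1 CPM in 4 libraries. Leaving out 1 library gave 57 (BO-112 1) to 89 (Vehicle 2), and each of these was the only library of its group above 50 CPM. Array weights called 1 gene lower, Gm33378. Of 35 named calls, 6 were lost at 100 CPM (Xirp2, Myl1, Myoz2, Myf6, Smyd1, Neb), 2 with the continuous term (Smyd1, Casq1), 2 with groups holding both sets only (Smyd1, Neb), 2 without DMXAA 2 and DMXAA 3 (Myoz2, Smyd1) and 3 with the replicate block (Smyd1 and Neb among them), and Ttn was called at 100 CPM and with the continuous term. No named gene reversed.

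Replicate numbers did not pair the libraries (mean correlation 0.0152 over 21 pairs, -0.212 to 0.255). With the number as a replicate block, 71 genes were called, 70 of them among the 86, and treatment counts with the term were 1659 for BO-112, 142 for DMXAA and 435 for BO-112 with DMXAA.

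Treatment counts with the term moved more. For DMXAA against Vehicle, total-count scaling gave 70 and limma-voom 71. With DMXAA 2 and DMXAA 3 left out, an alternative chosen after seeing the data, the counts were 4252 for BO-112, 343 for DMXAA and 926 for BO-112 with DMXAA. Leaving out 1 library gave 1097 (Vehicle 3) to 3323 (DMXAA 2) for BO-112, and 1257 without Vehicle 1. It gave 20 (Vehicle 1) to 2498 (DMXAA 4) for DMXAA, 30 without Vehicle 3, and 86 to 96 without Vehicle 2, BO-112 1, BO-112 4, DMXAA 1 or replicate 1 of BO-112 with DMXAA. It gave 159 (Vehicle 3) to 685 (DMXAA 2) for BO-112 with DMXAA, and 258 to 270 without Vehicle 1 or replicates 1 or 2 of that group. Total-count scaling gave 919 higher and 1595 lower genes for BO-112, against 1309 and 680 with the deposited scaling. The cause was not tested.

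Depth limits the genes with 0 to 3 reads in the other 11 libraries, where a fitted difference depends on the offset. The 4 libraries come from 3 treatments, and muscle cannot be told apart from other tumour-to-tumour differences that go with Acta1.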
